A study of Mus musculus with 8 samples.

Results

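Gas5 is a mouse host gene whose introns encode small nucleolar RNAs (snoRNAs), and its small RNAs were followed one by one in stem cells and fibroblasts. Members were the rows of the count tables that lie wholly within a window on chromosome 1 that holds Gas5 and its flanks (build mm10), which gave 10 of 5518 rows. One of them, SNORD77, overlapped Snord80 and had the same count in every library, so it was dropped and 9 rows were kept. All 9 are annotated as snoRNA genes, including Mir5117, whose name is that of a microRNA.

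Small RNAs were counted in 8 libraries of 3 kinds. Mouse embryonic stem (MES) cells, grown without feeder cells and with leukemia inhibitory factor, were measured in 2 libraries by target enrichment (TEsR). This method ligates linkers to whole small RNAs, removes caps, amplifies, and captures small RNAs with probes, with no size selection and after removal of ribosomal RNA, and was sequenced on a MiSeq. Mouse embryonic fibroblasts (MEFs) were measured in 4 TEsR libraries and in 2 libraries made by the standard TruSeq small RNA method on a HiSeq. All MEFs were TRF2 conditional knockout cells with the Rosa26-CreERT2 recombinase, TRF2 being a protein that protects telomere ends. Induced MEFs received 0.6 µM 4-hydroxytamoxifen for 48 hours, which activates the recombinase. By their titles the 2 TruSeq libraries were from induced MEFs, and the TEsR libraries were from 2 induced and 2 uninduced samples. The column names of the 4 MEF TEsR libraries (mmS1, mmS2, pmS1 and pmS2) do not tell induced from uninduced in the sources used here, so these libraries were pooled as 1 group and induction was not compared. The MES cells were not induced, and the labels used here give no genotype for them. Nothing in the labels says whether the libraries of a kind were separate cultures. The p-values therefore measure the spread among these libraries alone, and that spread may be technical.

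Gas5 transcripts are spliced into a short-lived non-coding RNA, and the introns are trimmed to snoRNAs that are held in protein complexes in the nucleolus. They belong to the C/D box class, named for a pair of short motifs near the ends, which brings the enzyme fibrillarin to ribosomal RNA to methylate the ribose at sites chosen by base pairing next to the D box. Snord78, Snord80 and Snord47 are members of this class that are known to guide methylation of the large-subunit ribosomal RNA. Gas5 itself was named as a gene whose RNA accumulates in growth-arrested cells. The snoRNA genes share 1 host gene and 1 strand. The host has 25 annotated transcripts, and the use of promoters was not examined.

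The 6 members on which the comparisons turn are shown here with the C box (TGATGA, or TGATG without the last base) and the D box (CTGA) in capitals. They are GENCODE vM21 transcripts on mm10, plus strand, written 5′ to 3′ as DNA. Gm23212 and Gm22489 are the shortest members and stood highest in the TruSeq libraries:
Gm23212: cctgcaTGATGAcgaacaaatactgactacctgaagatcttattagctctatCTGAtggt
Gm22489: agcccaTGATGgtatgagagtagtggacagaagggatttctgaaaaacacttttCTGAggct
Gm22357 and Mir5117 are the longest members and were higher in TEsR than in TruSeq libraries of MEFs:
Gm22357: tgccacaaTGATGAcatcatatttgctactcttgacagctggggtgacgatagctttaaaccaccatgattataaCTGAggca
Mir5117: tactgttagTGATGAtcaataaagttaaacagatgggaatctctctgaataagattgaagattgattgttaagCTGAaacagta
Gm26224 and Snord80 were among the leading members in MES cells:
Gm26224: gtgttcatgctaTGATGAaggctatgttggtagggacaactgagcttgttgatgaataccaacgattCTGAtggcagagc
Snord80: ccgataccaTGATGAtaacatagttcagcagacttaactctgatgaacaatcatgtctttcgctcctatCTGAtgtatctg

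All 9 members held a C box within the first 25 bases and a D box within the last 15, both searched on the gene's own strand. The 6-base C box was present in 7 members, while Gm22489 and Snord78 had its first 5 bases only. Of the 300 snoRNA rows of 60 to 84 bases, the members' own range of lengths, 78.7% held both boxes, and of all 1497 snoRNA rows with a sequence, 23.0% did. The first and last bases of Mir5117 paired flush over 7 positions (tactgtt with aacagta), the longest such stem among the members. Gm25789 had a stem of 5 pairs, and Gm22489, Gm22357 and Snord47 had 4. A stem of 4 or more was found in 11.7% of the snoRNA rows of this length range. A stretch of 20 bases was shared with another row of the tables in only 2 cases, Snord80 with SNORD77 and Gm25789 with Gm25802. Gm25802, the near copy of Gm25789, had at most 1 count in a library, against 370 to 10785 for Gm25789, so few counted reads went to it. Whether the authors' counting left out reads shared by both was not tested.

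Gas5 spans chr1:161034422-161038539 on the plus strand. In the annotated transcript with 12 exons that was used here, the 9 members lay in 9 of the 11 introns, 1 in each, and introns 4 and 7 held none. Each member also lay within an exon of 1 to 6 of the 25 annotated transcripts. From the start of the host the order was Gm26224 (80 bases, chr1:161035394-161035473), Gm22489 (62 bases, chr1:161035850-161035911), Gm22357 (83 bases, chr1:161036057-161036139) and Gm23212 (60 bases, chr1:161036682-161036741). Then came Snord78 (66 bases, chr1:161036984-161037049), Mir5117 (84 bases, chr1:161037356-161037439), Snord80 (81 bases, chr1:161037601-161037681), Snord47 (77 bases, chr1:161038082-161038158) and Gm25789 (76 bases, chr1:161038308-161038383). The 3′ end lay 65 to 78 bases before the end of the intron in 7 members. Gm26224 and Snord80 were the exceptions, at 278 and 313 bases.

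**Figure D1:**
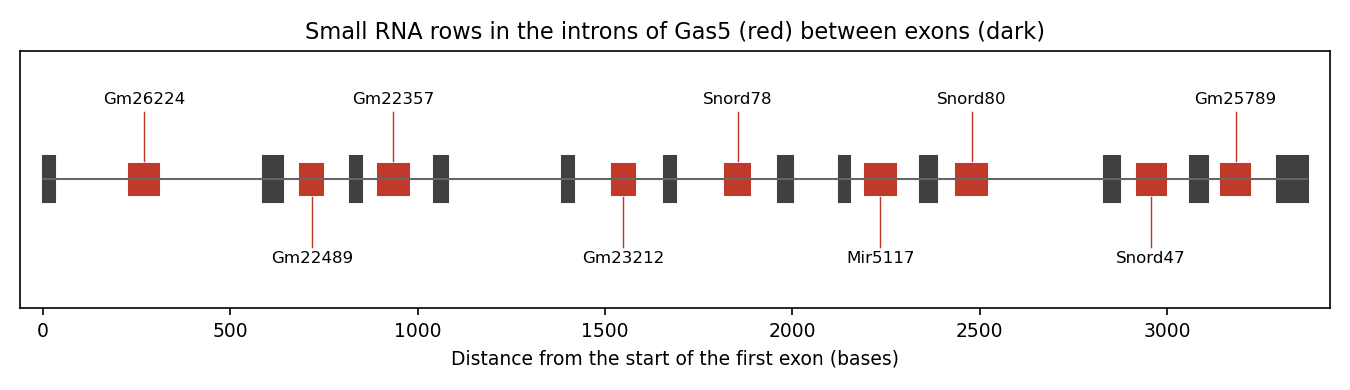
Map of a Gas5 transcript of 12 exons, to scale, with the distance from the start of its first exon in bases on the x axis, exons as dark boxes and the 9 small RNA rows as red boxes. Each red box lies inside an intron, and 9 of the 11 introns hold 1.

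The libraries held 2785150 and 2676776 counts in MES cells, 3221641 to 3768668 in MEFs by TEsR and 8442960 and 8961221 in MEFs by TruSeq. A few rows took much of each library: Snord68 held 53.0% and 54.5% of the MES counts and 39.0% to 42.4% of the counts of mmS1, mmS2 and pmS1, Snord70 held 43.1% in pmS2, and Gm23212 held 50.2% and 43.6% of the TruSeq counts. Levels are given as CPM, a count scaled to a library total of 1000000, which such rows can move, and tests used edgeR's quasi-likelihood test with scaling by the trimmed mean of M-values and Benjamini-Hochberg adjustment over all rows tested. The stem cell microRNA genes of the Mir290 and Mir302 clusters were all counted in MES cells (11 of 11, summing to 466 and 506 CPM), summed to 0 to 1.33 CPM in the MEF TEsR libraries and were at 0 in the TruSeq libraries. Fibroblast microRNA genes (7 listed) summed to 132 and 142 CPM in MES, 4661 to 20845 CPM in MEF TEsR and 51.0 and 86.5 CPM in TruSeq libraries. The let-7 genes summed to 1.12 and 2.87, 83.1 to 247, and 26.1 and 27.0 CPM in the same order. Muscle markers summed to at most 4.56 CPM, epithelial markers to 88.9 and 92.3 CPM in MES and at most 3.49 elsewhere, and the matched neural, blood and liver rows were at 0. The let-7 list was thus higher and the stem cell list lower in the TruSeq libraries than in MES cells. The summed CPM of the fibroblast list was lower in the TruSeq libraries of fibroblasts than in MES cells, against their label. Detection went the other way: of the 7 listed rows, 7 had counts in the TruSeq libraries and 4 in MES cells. The TruSeq libraries were also deeper, and Gm23212 took much of their counts. Within TEsR the fibroblast list was higher in MEFs than in MES cells. Cell type and method change together between MES by TEsR and MEFs by TruSeq, so their parts cannot be told apart. The part of any of these differences in the Gas5 values was not tested. In bulk RNA, fewer cells of a type and less of an RNA per cell cannot be told apart.

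In sum the 9 Gas5 rows made up 5.40% and 4.66% of all counts in MES replicates 1 and 2. In MEFs by TEsR the share was 0.745% in mmS1, 0.681% in mmS2, 0.827% in pmS1 and 0.606% in pmS2. In MEFs by TruSeq it was 52.9% with the index ATCACG and 46.2% with CGATGT. Exact Clopper-Pearson 95% intervals, which cover counting error only, reached at most 1.41% of the share to either side. The MES mean of 5.03% ± 0.519 (SD, n = 2) exceeded the MEF TEsR mean of 0.715% ± 0.0939 (SD, n = 4), and the TruSeq mean was 49.5% ± 4.75 (SD, n = 2). No library of one kind overlapped another kind. The exact 2-sided permutation p was 0.133 for MES against MEF by TEsR and for MEF by TEsR against TruSeq, the smallest that 2 against 4 libraries allow, so this test cannot reach 0.05.

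Most of the TruSeq share was Gm23212. Without it, the other 8 members were 2.68% and 2.57% of the TruSeq counts, against 5.22% and 4.50% of the MES counts and 0.577% to 0.792% of the MEF TEsR counts. Over all counts other than Gm23212, the 8 members made up 5.38% and 4.55% in TruSeq, 5.23% and 4.51% in MES, and 0.577% to 0.792% in MEF TEsR libraries. On this base the TruSeq and MES ranges overlapped, and both lay above the MEF TEsR libraries. The overlap was lost when the leading row of each library was left out (Snord68 in MES, Snord68 or Snord70 in MEF TEsR, Gm23212 in TruSeq): the Gas5 share was then 11.5% and 10.2% in MES, 5.38% and 4.55% in TruSeq and 1.06% to 1.36% in MEF TEsR libraries.

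**Figure D2:**
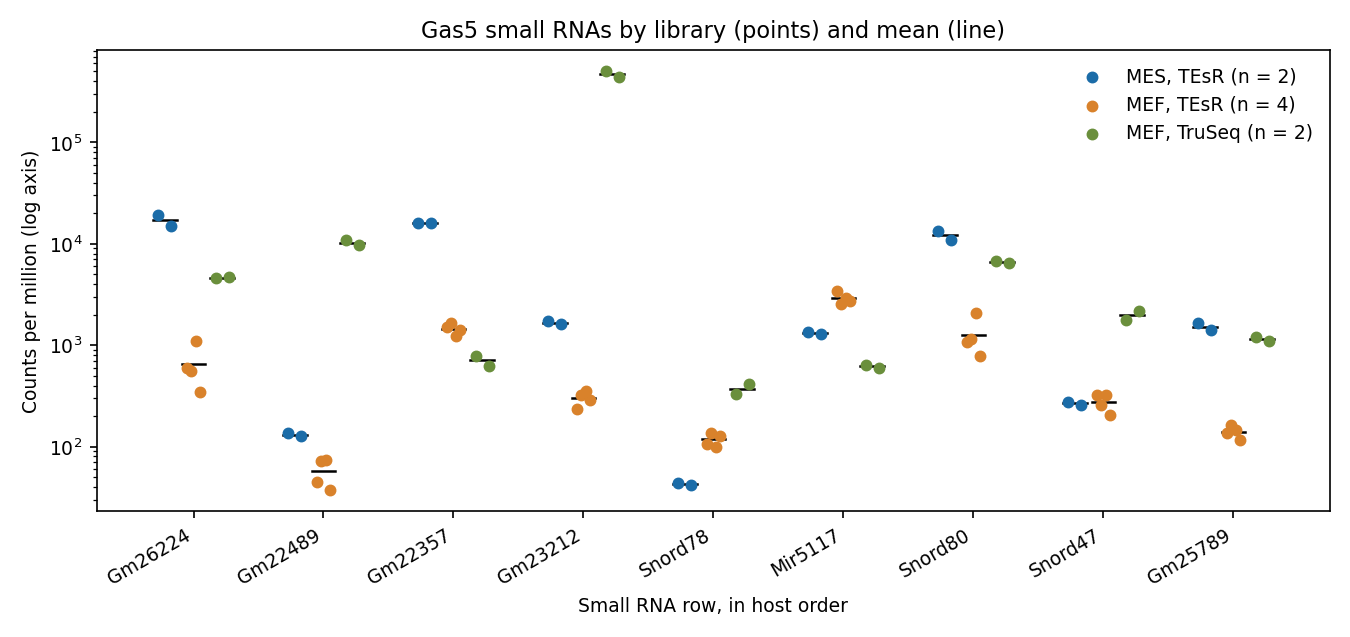
CPM on a log axis for each Gas5 small RNA in host order, with 1 point per library and a line at the mean, for MES by TEsR (n = 2), MEF by TEsR (n = 4) and MEF by TruSeq (n = 2). Gm23212 stands near the top of the axis in the TruSeq libraries only, at 501940 and 435859 CPM, and Mir5117 is the one member highest in MEFs by TEsR.

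MES cells and MEFs were first compared within the TEsR method, called between cell types below. The MEF libraries mixed induced and uninduced TRF2 conditional knockout cells, while the MES cells were not induced and their genotype is not given. Cell type, culture, induction and any difference of genotype therefore change together, and their parts cannot be told apart. Of the 9 members, 6 were higher in MES cells, 0 were lower and 3 did not pass the test. Over all 273 rows tested, 43.6% were called higher and 31.5% lower in MES, and the median log2 fold change was 0.45 over all rows and 3.25 over Gas5. Among snoRNA rows with duplicates counted once, 90 of 146 were higher and 20 lower, with a median of 2.48, so a higher level in MES was the common case for snoRNAs. DESeq2 also gave 6 higher and 0 lower, and with either tool 0 members were lower at an unadjusted p under 0.05.

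Gm26224, in the first intron, showed the largest difference. It stood at 19343 and 15103 CPM in MES cells and at 596, 551, 1099 and 341 CPM in mmS1, mmS2, pmS1 and pmS2. Both MES libraries lay far above all 4 MEF libraries, among which pmS1 was highest and pmS2 lowest. The log2 fold change was 5.59 ± 0.37 (SE, edgeR adjusted p = 1.74e-06).

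Snord80, a guide of ribosomal RNA methylation, stood at 13454 and 10857 CPM in MES and 1085, 1137, 2052 and 785 CPM in the MEF libraries in the same order. As with Gm26224, pmS1 was the highest MEF library and pmS2 the lowest, and the groups did not overlap. Its log2 fold change was 4.10 ± 0.33 (SE, edgeR adjusted p = 3.13e-06).

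In CPM, Gm22357 was the steadiest of the abundant members between MES libraries, at 15975 and 15933. Its share of the Gas5 counts was less steady there, at 29.6% and 34.2%. In the MEF libraries Gm22357 stood at 1519, 1649, 1225 and 1419 CPM, and here pmS1 was the lowest rather than the highest. In the fit it was higher in MES by 4.20 ± 0.35 on the log2 scale (SE, edgeR adjusted p = 3.51e-06).

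Gm25789, in the last intron, was higher in MES by nearly the same factor. It had 1642 and 1400 CPM in MES and 136, 165, 146 and 115 CPM in the MEF libraries, with no overlap. The log2 fold change was 4.20 ± 0.35 (SE, edgeR adjusted p = 3.7e-06).

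Gm23212, the row that led the TruSeq libraries, was of middle rank by TEsR. It stood at 1732 and 1603 CPM in MES and 235, 322, 352 and 286 CPM in MEFs, again without overlap. Its log2 fold change was 3.25 ± 0.34 (SE, edgeR adjusted p = 1.13e-05).

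Gm22489 had the smallest difference among the members that passed. It was at 135 and 128 CPM in MES and 44.5, 72.2, 73.8 and 37.2 CPM in MEFs. The MEF libraries fell into a lower and a higher pair that did not follow the codes mm and pm, and all 4 lay below MES. The log2 fold change was 1.99 ± 0.38 (SE, edgeR adjusted p = 0.000679).

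The remaining 3 members did not pass the test between cell types. Mir5117 was at 1355 and 1296 CPM in MES and at 3407, 2525, 2896 and 2744 CPM in the MEF libraries. In CPM all 4 MEF libraries lay above MES, but after scaling the log2 fold change was -0.35 ± 0.33 (SE, edgeR adjusted p = 0.34).

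Snord78, a guide of ribosomal RNA methylation, was at 43.8 and 42.2 CPM in MES and 107, 137, 99.2 and 127 CPM in MEFs. The CPM values did not overlap, and the fitted log2 difference was -0.72 ± 0.41 (SE, edgeR adjusted p = 0.132). When libraries were scaled by their total only, which moved the median of all rows from 0.45 to -0.38, both were called lower in MES, Mir5117 at -1.13 (edgeR adjusted p = 0.00983) and Snord78 at -1.45 (edgeR adjusted p = 0.00994). Whether these 2 were lower in MES thus depended on the scaling.

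Snord47, a further methylation guide, was at 278 and 258 CPM in MES and 320, 255, 325 and 204 CPM in MEFs. The MES values lay inside the MEF range. The log2 fold change was 0.75 ± 0.34 (SE, edgeR adjusted p = 0.0685), and it was -0.045 with scaling by library total only.

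The next comparison was between methods in MEFs, TEsR against TruSeq. Here 2 of the 9 members were higher by TEsR, 6 were lower and Snord78 did not pass. Over the 352 rows tested, 32.4% were called higher and 55.7% lower by TEsR, so the members' calls were near the background. The median log2 fold change was -2.23 for Gas5, -2.42 for all rows and -4.68 for the 212 snoRNA rows, of which 22 were higher and 161 lower. Ligation, capture, ribosomal RNA removal and sequencer differed together. The TEsR column names carry an unexplained tag, q10, that the TruSeq names lack, so the counting may have differed too. TEsR also removed caps and used no size selection, and the TruSeq libraries were from induced MEFs only. The parts of these differences cannot be told apart.

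Gm23212 carried the widest gap. It reached 501940 and 435859 CPM by TruSeq against 235 to 352 CPM in the 4 TEsR libraries, which made its mean 1569-fold higher by TruSeq. The log2 fold change of TEsR against TruSeq was -9.99 ± 0.43 (SE, edgeR adjusted p = 1.77e-09). Gm22489, next in size, had 10780 and 9702 CPM by TruSeq and at most 73.8 CPM by TEsR, a 180-fold difference of means. Its log2 fold change was -6.87 ± 0.45 (SE, edgeR adjusted p = 3.05e-08). These 2 rows are the shortest members.

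Snord80, Snord47, Gm26224 and Gm25789 were lower by TEsR by similar amounts. Snord80 had 6714 and 6384 CPM by TruSeq, and a log2 fold change of -1.82 (edgeR adjusted p = 0.000363). Snord47 had 1786 and 2188 CPM by TruSeq, and a log2 fold change of -2.23 (edgeR adjusted p = 5.46e-05). The 4 changes lay between -1.82 and -2.40, close to the median of all rows. Gm26224 had 4547 and 4655 CPM by TruSeq (log2 fold change -2.29), and Gm25789 had 1204 and 1108 CPM (log2 fold change -2.40).

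Mir5117 and Gm22357, the longest members, went the other way. Mir5117 had 641 and 598 CPM by TruSeq, below all 4 TEsR libraries, and a log2 difference of 2.85 ± 0.42 (SE, edgeR adjusted p = 3.44e-05). Gm22357 had 789 and 626 CPM by TruSeq, also below every TEsR library of MEFs, and a log2 difference of 1.69 ± 0.45 (SE, edgeR adjusted p = 0.00313). The call for Gm22357 was lost without the TruSeq library CGATGT (log2 fold change 1.27, edgeR adjusted p = 0.0965) and with only the 2 MEF libraries coded pm (log2 fold change 1.08, edgeR adjusted p = 0.0509).

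Snord78 was at 330 and 410 CPM by TruSeq, above the TEsR libraries of MEFs, and a log2 difference of -0.95 ± 0.45 (SE, edgeR adjusted p = 0.0609). It passed without the library mmS2 (log2 fold change -1.14, edgeR adjusted p = 0.0225), with only the 2 libraries coded pm (-1.51, edgeR adjusted p = 0.0166) and with scaling by library total only (-1.65, edgeR adjusted p = 0.00296). With DESeq2 it was -0.33 (adjusted p = 0.503), so its size and its call both depended on the scaling and the libraries used.

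Between MES cells by TEsR and MEFs by TruSeq, cell type and method change together. The comparison shares its libraries with the 2 others, so only its own values are given. All 9 members passed the test, 5 higher and 4 lower in MES by TEsR, while 36.6% of the 352 rows were called higher and 50.0% lower. The median log2 fold change was 1.75 for Gas5 and -1.06 for all rows. Gm22357 stood highest, by a log2 difference of 5.85 ± 0.23 (SE, edgeR adjusted p = 3.33e-07), and Gm26224 (3.26), Mir5117 (2.46), Gm25789 (1.75) and Snord80 were also higher. Gm23212 was lowest at -6.78 ± 0.22 (SE, edgeR adjusted p = 1.16e-07), followed by Gm22489 (-4.92), Snord78 (-1.73) and Snord47 (-1.52). The call for Gm25789 was lost with scaling by library total only (log2 fold change 0.40, edgeR adjusted p = 0.0545), which moved the median of all rows to -2.42.

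**Figure D3:**
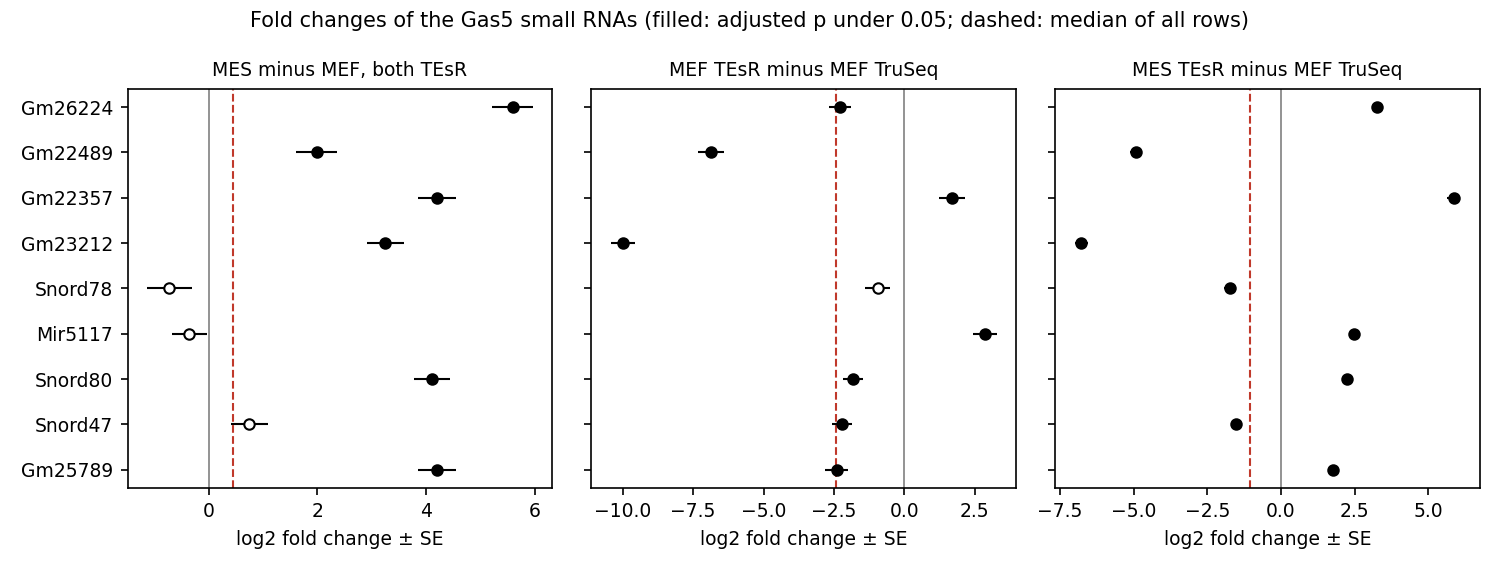
Log2 fold change with its standard error for each Gas5 small RNA in the 3 comparisons (edgeR), with filled points for adjusted p under 0.05, a grey line at 0 and a dashed line at the median of all rows. The members run from -9.99 to 2.85 between methods in MEFs and from -0.72 to 5.59 between cell types by TEsR.

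The makeup of the Gas5 counts needs no scaling between libraries, since each share is taken within the host gene. In MES cells Gm26224 held 35.8% and 32.4% of the Gas5 counts, Gm22357 held 29.6% and 34.2%, and Snord80 held 24.9% and 23.3%. In MEFs by the same method Mir5117 led with 45.7%, 37.1%, 35.0% and 45.3% in mmS1, mmS2, pmS1 and pmS2, where it had 2.51% and 2.78% in MES. The MEF share of Gm26224 was 5.64% to 13.3%, highest in pmS1 and lowest in pmS2. Snord47 was 0.514% and 0.553% of the Gas5 counts in MES and 3.37% to 4.29% in MEFs by TEsR, although its CPM ranges overlapped. Shares within Gas5 add up to a fixed whole, so a rise of some members lowers the shares of the rest. Gm22489, called higher in MES, had a mean share of 0.263% in MES and 0.791% in MEFs by TEsR. The exact 2-sided permutation p over libraries was 0.133 for 7 of the 9 shares between MES and MEF by TEsR, the smallest possible, and the test cannot reach 0.05. The other two, Gm23212 and Snord80, had overlapping shares, with exact permutation p of 0.4 and 0.267.

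In the TruSeq libraries Gm23212 held 94.9% and 94.4% of the Gas5 counts, against 3.21% and 3.44% in MES and 3.16% to 4.73% in MEFs by TEsR. With Gm23212 left out, Gm22489 led the TruSeq libraries at 39.0% ± 1.73 (SD, n = 2) of the other counts, followed by Snord80 at 24.96% and Gm26224 at 17.6%. On the same base Gm22489 was 0.272% in MES and 0.827% in MEFs by TEsR.

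**Figure D4:**
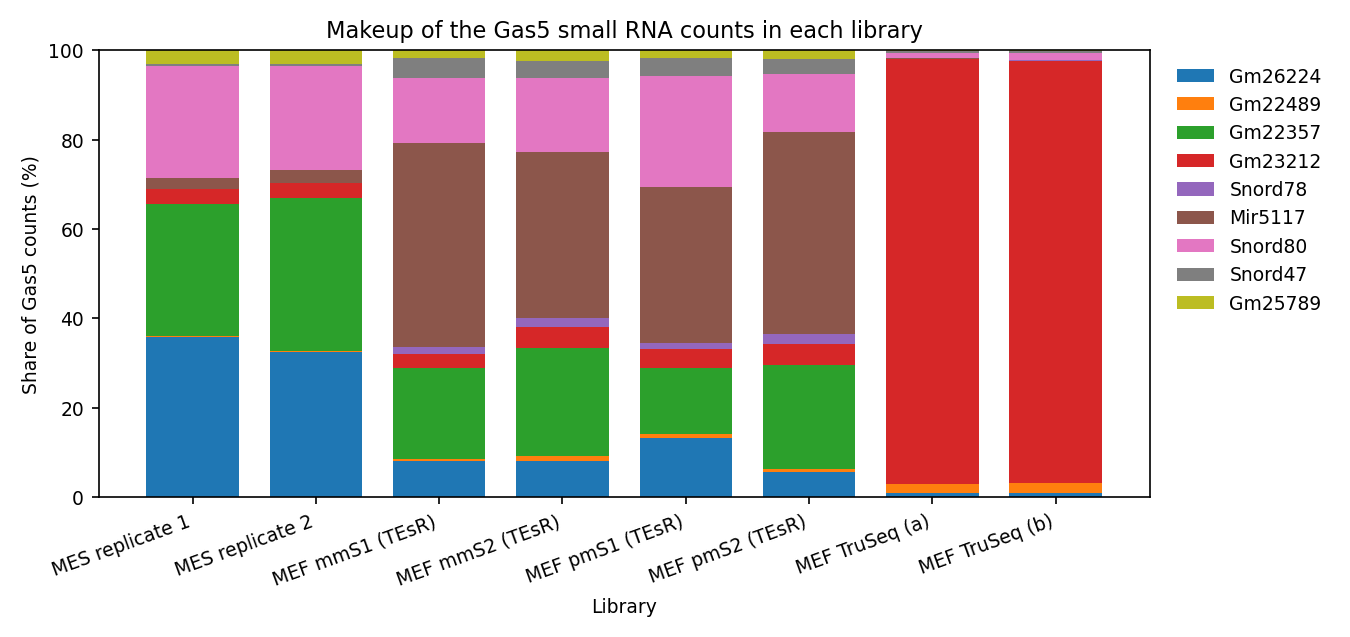
Share of each small RNA in the Gas5 counts of a library, in percent, stacked in host order for the 8 libraries; TruSeq (a) carries the index ATCACG and (b) CGATGT. Gm26224, Gm22357 and Snord80 fill most of the MES bars, Mir5117 is the largest part of each MEF TEsR bar, and Gm23212 fills 94.9% and 94.4% of the TruSeq bars.

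Ratios between members within a library show the same contrasts without any scaling. Gm26224 had 14.3 and 11.7 times the counts of Mir5117 in MES, while Mir5117 had 5.71, 4.58, 2.64 and 8.04 times the counts of Gm26224 in mmS1, mmS2, pmS1 and pmS2. In TruSeq libraries of MEFs Gm26224 was again the more counted, by 7.09 and 7.78 times. The order of this pair in MEFs was thus opposite by the 2 methods.

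Gm26224 and Snord80 kept a nearly constant ratio within each kind of library, at 1.44 and 1.39 in MES, 0.435 to 0.549 in MEFs by TEsR, and 0.677 and 0.729 by TruSeq. Both have a long distance to the end of their intron in the transcript used, and a link of this to the ratio was not tested. Gm23212 and Snord80 showed how far a pair could move with the method: the ratio was 0.129 and 0.148 in MES, 0.172 to 0.365 in MEFs by TEsR, and 74.8 and 68.3 by TruSeq.

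Levels of different genes were compared per 100 bases of annotated length. In MES cells the order from the highest was Gm26224, Gm22357, Snord80, Gm23212, Gm25789, Mir5117, Snord47, Gm22489 and Snord78, and of neighbours only Gm26224 and Gm22357 overlapped between libraries. The highest mean level was 330-fold the lowest. In MEFs by TEsR the order was Mir5117, Gm22357, Snord80, Gm26224, Gm23212, Snord47, Gm25789, Snord78 and Gm22489, with a 37.5-fold span. Each neighbour from Gm22357 to Snord47 overlapped the next, as did Gm25789 and Snord78, while Mir5117 stood clear at 3444 ± 446 CPM per 100 bases (SD, n = 4) above Gm22357 at 1750 ± 215. In TruSeq libraries the order was Gm23212, Gm22489, Snord80, Gm26224, Snord47, Gm25789, Gm22357, Mir5117 and Snord78, with a 1394-fold span and an overlap of Gm22357 with Mir5117 only. Ranking by CPM gave the same orders, but the fold spans hold for levels per 100 bases only. In mean CPM the highest and lowest members stood at 17223 and 43.0 in MES and 2893 and 56.9 in MEF TEsR libraries. By TruSeq the values were 468900 and 370.

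Of 4 features tried over the 9 members (length, share of G and C bases, distance to the intron end and order in the host), length followed the difference between methods in MEFs most closely. Across members the log2 fold change of MEF TEsR against TruSeq was larger in longer RNAs (Spearman's rho 0.817, Pearson's r 0.835), and for MES TEsR against TruSeq the values were 0.9 and 0.922. These are descriptions over 9 RNAs that share the same libraries and overlap in base composition. Among the other 88 snoRNA rows of the same range of lengths, rho was 0.0427 for MEFs and 0.194 for MES cells, and among all 203 other snoRNA rows tested in MEFs it was -0.377. Between MES and MEF by TEsR, length showed little relation over the members (rho 0.2). The share of G and C bases, from 28.8% in Snord78 to 45.0% in Gm26224, went with the MES against MEF difference at rho 0.767 (r 0.799), beside 0.36 (r 0.345) over 82 other snoRNA rows of this length range and 0.511 (r 0.506) over all 137 other snoRNA rows tested. Distance to the end of the intron gave rho 0.417 and order in the host -0.3 for that difference.

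**Figure D5:**
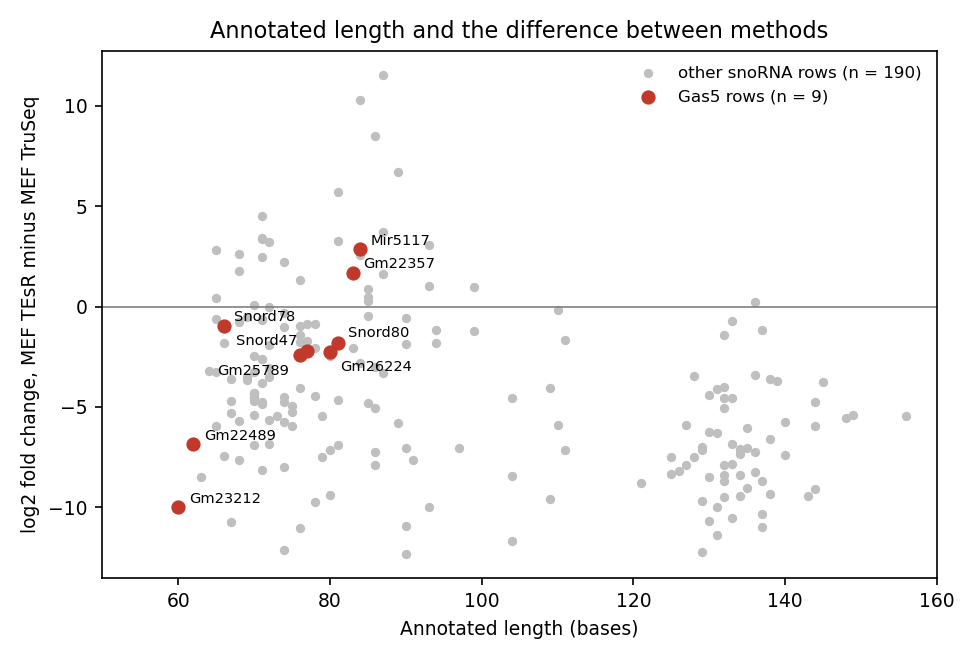
Log2 fold change of MEF TEsR against MEF TruSeq (y axis) against annotated length in bases (x axis), for the 9 Gas5 rows in red and 190 other snoRNA rows of 50 to 160 bases in grey. The red points run from Gm23212 (60 bases, -9.99) up to Mir5117 (84 bases, 2.85), with Snord78 (66 bases, -0.95) high for its length, while grey points of the same lengths are spread over both signs.

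Other host genes with several intronic snoRNAs (Snhg1, Rpl13a, Taf1d, Nop56, Nop58 and Eif4a2, 38 rows) were read in the same way. Between MES and MEF by TEsR, 15 of their 27 tested rows were higher and 3 lower, with a median log2 fold change of 1.43, and the 5 rows of Rpl13a, a ribosomal protein gene, were all higher (median 3.58). Between methods in MEFs, 7 of 32 were higher and 18 lower by TEsR (median -2.43). For MES by TEsR against TruSeq, 10 of 33 were higher and 18 lower (median -0.69). In Nop58, a gene for a core protein of C/D box particles, all 4 rows were higher by TEsR in MEFs, with a median of 8.03. By mean CPM over the 8 libraries the highest rows of the hosts were Snord2 (Eif4a2), Snord110 (Nop56), Snord70 (Nop58), Snord32a (Rpl13a), Gm23246 (Snhg1) and Gm24299 (Taf1d). Gm23246 held this rank through the TruSeq libraries, with a mean of 34739 CPM there, 6.43 in MES and 14.4 in MEFs by TEsR. Summed shares show how far hosts parted by method. The Nop58 rows held 33.4% ± 0.104 (SD, n = 2) of counts in MES and 43.2% ± 2.43 (SD, n = 4) in MEFs by TEsR. By TruSeq they held 0.0694% ± 0.00927 (SD, n = 2), opposite in order to Gas5. Single rows weighed heavily in both sums. Snord70 of Nop58 had means of 278627 CPM in MES, 397975 in MEF TEsR and 211 in TruSeq libraries. Without Gm23212 the mean Gas5 share was 4.86% in MES, 0.685% in MEF TEsR and 2.62% in TruSeq libraries.

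The rows whose levels over the 3 kinds of library most resembled the summed Gas5 counts were Gm24916, Gm23969 and Snord118, the U8 snoRNA that takes part in maturation of the large ribosomal subunit RNA. Likeness was the distance between centred mean log2 CPM over 3 conditions among 152 snoRNA rows, and the distances were 0.0754, 0.362 and 0.377. Gm24916 had means of 466 CPM in MES, 69.5 in MEFs by TEsR and 4568 by TruSeq. The likeness is to the sum only, whose makeup differs by method. Gm23212 held a mean of 94.7% of the Gas5 counts in TruSeq, 3.32% in MES and 4.22% in MEF TEsR libraries.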

How the data were processed

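The deposited values are raw read counts, 1 whole number per annotated small RNA and library, and the file headers name no normalization. The submitters' processing notes list bedtools 2.25.0, SAMtools 1.2.1, BWA 0.7.12, cutadapt and the build mm10. The TEsR column names carry the tag q10, which the labels do not explain, and the TruSeq column names carry no such tag. Other settings and the use of strand in counting were not given in the sources used here. Columns were assigned by name and 0 were left out. The TruSeq table is named a control while its samples are titled induced, and the titles were followed. The members, lists and tests were chosen with earlier results of these data known.

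Rows were matched to GENCODE vM21 by identifier. The 9 members held 113 to 4497999 counts in a library, and all passed the filter on low counts (filterByExpr, minimum count 10). Reads carried no molecular identifiers, so intervals cover counting error only. No library was a duplicate of another: the chi-square per degree of freedom between replicates was 21.9 in MES, 285 to 794 in MEF TEsR and 533 in TruSeq.

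Comparisons used edgeR 4.0.16 in R 4.3.3, with the standard error taken as the log2 fold change over the square root of F, and a threshold of 0.05 on the adjusted p. The script was also run on simulated data with 1 fixed spread between libraries, which does not show how it performs at the spread seen here. Shares were tested by exact permutation (Python 3.11.15). Every member was named; of other rows, the 3 most like the summed Gas5 counts (pseudocount 1, mean of at least 10 CPM), the leading row of each library and the highest row of each other host. Alternatives were DESeq2 1.42.0, library size only, no filter, duplicates counted once, each library left out, a replicate block where column names share numbers and, chosen after seeing the data, the MEF TEsR libraries of 1 code only. Induction was not compared, and pairing with ribosomal RNA was not analysed here.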

Additional observations from a re-analysis of the deposited data

How the results depend on the processing

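Of the log2 fold changes recomputed under alternatives, 287 kept their direction and side of the threshold, 6 newly passed, 3 no longer passed and 1 reversed. Between MES and MEF by TEsR, scaling by library size only called 2 members lower against 0, and Snord47 reversed to -0.045 (edgeR adjusted p = 0.925). With only the 2 MEF libraries coded pm, Snord47 passed (0.82, edgeR adjusted p = 0.0488). Between methods in MEFs, the members higher by TEsR numbered 2, but 1 with the pm libraries only and 1 to 2 when each library was left out; the call lost, without the TruSeq library CGATGT, was Gm22357. The summed Gas5 share without the leading row of each library was 10.9% in MES, 1.22% in MEF TEsR and 4.96% in TruSeq, which in TruSeq leaves out Gm23212 itself. A lone library left in a group was assumed to vary like the other groups.

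Over all rows, dropping the filter on low counts raised the rows tested from 352 to 809 between methods in MEFs, with 166 higher and 246 lower against 114 and 196. Scaling by library size only gave 109 higher and 108 lower against 119 and 86 between cell types, and 101 and 219 against 129 and 176 for MES by TEsR against TruSeq. With SNORD77 kept beside Snord80, shares within Gas5 in MES moved, Gm26224 to 27.5% from 34.1%. Scaling by library size only moved the 9 members' log2 fold changes by -0.853 to -0.732 between cell types, -0.699 to -0.543 between methods in MEFs and -1.37 to -1.36 for MES by TEsR against TruSeq; DESeq2 moved them by -0.211 to -0.175, 0.619 to 0.66 and 0.399 to 0.424. Names of the MES and MEF TEsR columns share the numbers 1 and 2, but the differences between numbers did not go together (r = -0.0393 and -0.0226 over 273 rows). With this number as a replicate block, 6 members were higher and 0 lower in MES, as without it, and over all rows 117 were higher and 77 lower against 119 and 86. The TruSeq columns carry no number, so no paired fit was possible in the 2 comparisons with them. The cause of these changes was not tested.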
